A study of Mus musculus with 10 samples.

Results

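Fibro-adipogenic progenitors (FAPs) are the connective tissue progenitors that lie between the fibers of skeletal muscle. They build the matrix around the fibers, support satellite cells when a muscle regenerates, and can turn into matrix-producing fibroblasts or into adipocytes. Single-cell studies divide them into an adventitial state around vessels and fascia, marked by Pi16 and Dpp4, and other states within the tissue, among them cells rich in Smoc2. The 10 marker genes described here, listed by name, were Pdgfra, Ly6a, Cd34, Dpp4, Pi16, Gsn, Smoc2, Mfap5, Fap and Tcf7l2. All 10 were found among the 54232 genes of the deposited table and all 10 were among the 14289 genes that could be tested.

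RNA was sequenced from the gastrocnemius muscle of 5 homozygous desmin knock-out mice (Des -/-) and 5 wild-type mice (Des wt/wt) at 3 months of age. Both genotypes carried 1 strain label, which joins the names B6J, 129Sv, Destm1Cba and Cscl, and the wild-type mice were littermates. The deletion is present in every cell, so the comparison does not separate effects within muscle fibers from effects within the connective tissue. The labels and methods name the gastrocnemius, whereas other passages of the study speak of gastrocnemius and plantaris muscle. The methods also speak of pooled RNA, whereas every mouse has its own column in the table, used as 1 replicate here. In a whole muscle, fewer cells of a type and less RNA per cell cannot be told apart.

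Values are regularized log (rlog) values, a log2 measure of expression in which library size is accounted for and each gene is shrunken towards its own mean, so differences are smaller than log2 fold changes of counts. A gene was called changed at an adjusted p under 0.05 in limma (two-sided, Benjamini-Hochberg over all 14289 tested genes), which applied to 13.7% of them, 7.7% higher and 5.99% lower in desmin knock-out muscle. The counts of called genes in the gene lists below are to be read beside these shares. Des, the targeted gene, ranged from 11.76 to 11.89 in the mice labelled Des -/- and from 16.10 to 17.74 in the others (to 16.55 without wild-type mouse 3), as the labels have it. Muscle fiber genes defined the tissue in all mice, with 5 markers summing to at least 21.84. Wild-type mouse 3 stood apart from the other mice. Its mean correlation with its genotype was 0.982, below the 0.989 to 0.991 of the other wild-type mice. Its rlog values, taken out of the log and summed, came to 1.48 times the median, against 0.949 to 1.06 in the other mice. Most of the calls, directions and ranges below that change without this mouse are given both ways.

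Of the 10 FAP marker genes, Ly6a was lower and Mfap5 was higher in desmin knock-out muscle, and the other 8 did not pass the test. That is 2 of 10 called, beside 13.7% of all tested genes. The median log2 difference of the 10 genes was 0.023, beside -0.0029 over all tested genes, and 5 of the 10 had a higher mean in desmin knock-out muscle. Only Ly6a separated the genotypes without overlap, which 14.4% of all tested genes did (6.97% with the knock-out mice lower). Without wild-type mouse 3, again 2 of 10 were called, now Ly6a and Dpp4, both lower, beside 17.5% of all tested genes (9.34% higher and 8.13% lower). The median of the 10 genes was then -0.036, and only Mfap5 and Tcf7l2 had a higher mean in desmin knock-out muscle.

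**Figure D1:**
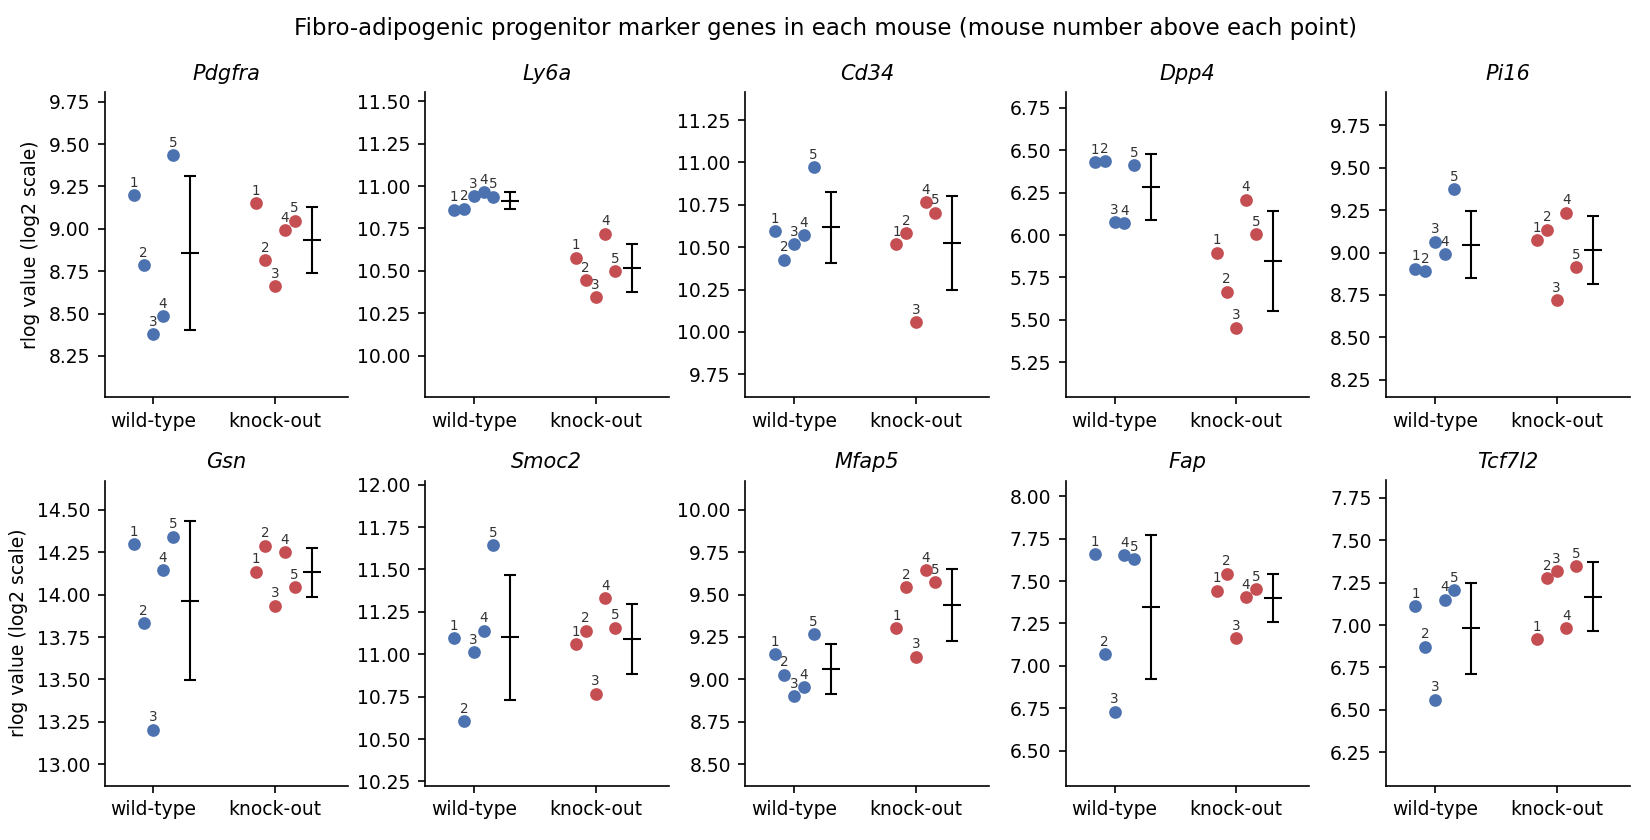
rlog values (log2 scale, vertical axis; each panel spans the same width of 1.8 log2 units) of the 10 FAP marker genes in 5 wild-type mice (blue) and 5 desmin knock-out mice (red), with the mouse number above each point and the mean ± SD as a black bar. Ly6a is the panel without overlap, Mfap5 and Dpp4 overlap in a single knock-out mouse, and the remaining genes overlap more widely.

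The levels of the markers spanned a wide range. Divided by exonic length, on the scale of rlog minus log2 of the length in kilobases, wild-type levels fell in the order Gsn (12.31), Ly6a (10.65), Smoc2 (8.30), Cd34 (7.75), Mfap5 (7.22), Pi16 (6.38), Pdgfra (5.53), Fap (4.85), Tcf7l2 (3.85) and Dpp4 (3.62). Desmin knock-out muscle had the same order. Neighbours that were closer than the sum of their wild-type SDs were Smoc2 and Cd34, Pdgfra and Fap, and Tcf7l2 and Dpp4. The exonic length joins all annotated transcripts of a gene, so these levels are approximate.

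Ly6a (ENSMUSG00000075602, chromosome 15, 74994877 to 74998031, reverse strand, GRCm38) encodes Sca-1, a GPI-anchored surface protein used to sort FAPs and also present on endothelial cells. Its values were 10.86, 10.87, 10.94, 10.97 and 10.94 in wild-type mice 1 to 5 and 10.58, 10.45, 10.34, 10.72 and 10.50 in desmin knock-out mice 1 to 5. All 5 knock-out values lay below the lowest wild-type value, and the wild-type mice were close together. This gave a mean of 10.91 ± 0.05 (SD, n = 5) for controls and of 10.52 ± 0.14 (SD, n = 5) for knock-out mice, and the log2 difference was -0.40 (limma, standard error 0.09, adjusted p = 0.00764). The 95% interval of the difference ran from -0.58 to -0.21. Over 17 alternative fits the difference lay between -0.45 and -0.30 with an adjusted p from 0.00401 to 0.0296 (limma).

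Part of the Ly6a transcript is shared with a neighbouring gene. Of 1297 different stretches of 50 bases in annotated Ly6a transcripts, 19.0% also occur in transcripts of other genes, and 195 of the 1297 occur in Ly6c1, which lies 46.0 kb away and encodes a related surface protein of endothelial cells and monocytes. Of these 195 stretches, 70 lie in the 5′ UTR and 125 span coding sequence and UTR. Single reads of 50 bases or fewer that lie within these stretches cannot be assigned to either gene by sequence. Longer or paired reads that reach past them were not examined. Ly6c1 was itself lower, at 10.93 ± 0.13 (SD, n = 5) in controls, against 10.58 ± 0.10 (SD, n = 5) without desmin, a log2 difference of -0.35 (limma, adjusted p = 0.0192). Of the other markers, Pdgfra shared the most stretches with other genes, 4.93%.

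Cd34 (ENSMUSG00000016494, chromosome 1, 194938819 to 194961279, forward strand) encodes a surface sialomucin of FAPs, endothelium and satellite cells. It lies on the chromosome of Des but 119.6 Mb away. Cd34 ranged from 10.43 to 10.97 in wild-type and, without desmin, from 10.06 to 10.77, and the lowest value belonged to knock-out mouse 3. The log2 difference was -0.090 (95% interval -0.39 to 0.21, limma, adjusted p = 0.711). The other 4 knock-out mice lay within the wild-type range, and knock-out mouse 3 lay below it.

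Because Ly6a and Cd34 are also endothelial genes, 6 endothelial markers were set beside them. Of these, 3 were called and all 3 were lower in desmin knock-out muscle, beside 5.99% of all tested genes called lower. All 6 had a lower mean, with a median log2 difference of -0.41. Cdh5, the cadherin of endothelial junctions, had a log2 difference of -0.52 (adjusted p = 0.00797), and Pecam1, an adhesion molecule of the same cells, had -0.49 (adjusted p = 0.013, both limma). The third, Tie1, was lost in 9 of 17 alternative fits (adjusted p up to 0.0974, limma). The summed level of the 6 genes was 12.17 to 12.56 in wild-type (to 12.50 without mouse 3) and 11.75 to 12.22 in desmin knock-out mice, and none of them was at 0. Relative to the mean of the 6 endothelial genes in the same mouse, Ly6a was at 1.23 ± 0.13 (SD, n = 5) in controls, against 1.22 ± 0.13 (SD, n = 5) without desmin. Relative to 10 genes shared by fibroblasts it was at 0.41 ± 0.21 (SD, n = 5) and -0.26 ± 0.15 (SD, n = 5), without overlap between the genotypes. The mean of these fibroblast genes was itself 0.27 higher in desmin knock-out muscle on the log2 scale, and that of the endothelial genes differed by -0.38, so both ratios also carry the shift of their reference. Cd34 relative to the endothelial genes was at 0.94 ± 0.26 (SD, n = 5) in controls, against 1.23 ± 0.20 (SD, n = 5) without desmin. Relative to the fibroblast genes, Cd34 was at -0.018 to 0.17 in wild-type and -0.37 to -0.094 in desmin knock-out mice. Dpp4, a marker of adventitial FAPs, was at -3.40 ± 0.29 (SD, n = 5) relative to the endothelial genes in controls, against -3.45 ± 0.19 (SD, n = 5) without desmin. Relative to the fibroblast genes, Dpp4 was at -4.41 to -3.87 in wild-type and -5.22 to -4.72 in desmin knock-out mice. A like ratio to the endothelial genes in both genotypes was thus not particular to Ly6a. The part of the endothelial genes in the lower Ly6a level was not tested.

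**Figure D2:**
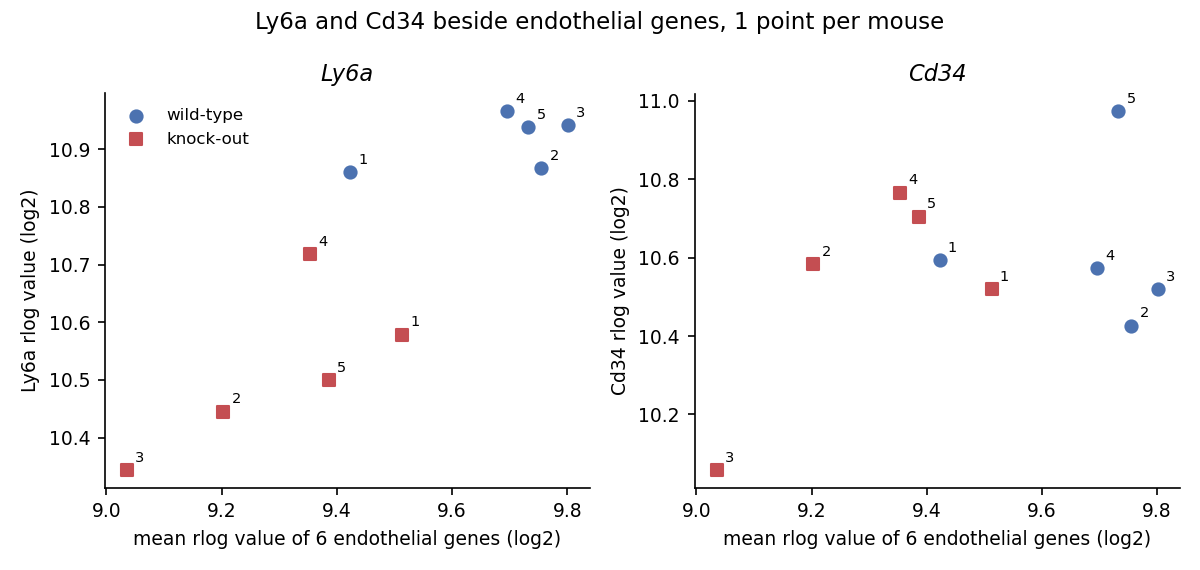
rlog values (log2) of Ly6a (left) and Cd34 (right) on the vertical axes against the mean rlog value of 6 endothelial genes (log2) on the horizontal axis, 1 numbered point per mouse, with wild-type mice as blue circles and desmin knock-out mice as red squares. Knock-out mouse 3 is lowest on both axes in both panels. For Ly6a the wild-type mice lie above all knock-out mice. For Cd34 they lie among the knock-out mice, except wild-type mouse 5, which is highest.

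Pdgfra (ENSMUSG00000029231, chromosome 5, 75152292 to 75198215, forward strand) encodes the PDGF receptor α, the receptor by which FAPs are usually identified. Its values were 9.20, 8.79, 8.38, 8.48 and 9.44 in wild-type mice 1 to 5 and 9.15, 8.82, 8.66, 8.99 and 9.05 in desmin knock-out mice 1 to 5. Every knock-out value lay within the wild-type range. The log2 difference was 0.078 (standard error 0.19, 95% interval -0.32 to 0.48, limma, adjusted p = 0.821). The interval reaches as far as 1.39-fold higher and 0.798-fold on the rlog scale, so differences of that size cannot be told from none. Without wild-type mouse 3 the log2 difference was -0.042.

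Around this receptor, 2 of 6 other genes of the PDGF system were called, both higher, beside 7.7% of all tested genes called higher. Pdgfrl, which encodes a secreted receptor-like protein, was at 5.26 ± 0.55 (SD, n = 5) in controls, against 6.63 ± 0.14 (SD, n = 5) without desmin, a log2 difference of 1.37 (limma, adjusted p = 8.0e-04). Pdgfb, a ligand made mainly by endothelium, was higher by 0.50 on the log2 scale (limma, adjusted p = 0.0196), a call that was lost without knock-out mouse 2 or 4 (adjusted p up to 0.0601), which left 1 of 6 called. Pdgfd, another ligand, had a log2 difference of -0.42 (limma, adjusted p = 0.182). The median of the 6 genes was -0.11.

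Dpp4 and Fap encode homologous membrane serine proteases, and their genes lie 88.7 kb apart on the reverse strand of chromosome 2. Dpp4 (ENSMUSG00000035000, 62330073 to 62412231) was at 6.43, 6.43, 6.07, 6.07 and 6.41 in wild-type mice 1 to 5 and at 5.90, 5.67, 5.45, 6.21 and 6.01 in desmin knock-out mice 1 to 5. Of the knock-out mice, 4 lay below all wild-type mice, and mouse 4 lay among them. The log2 difference of -0.44 (standard error 0.15, 95% interval -0.76 to -0.11) did not pass the threshold (limma, adjusted p = 0.0742, unadjusted p = 0.0121). It passed without wild-type mouse 3 (-0.49, adjusted p = 0.0428) and without knock-out mouse 4 (-0.53, adjusted p = 0.0445, both limma). Dpp4 has the lowest rlog level of the 10 markers, and the rlog transformation shrinks differences more at low levels.

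Fap (ENSMUSG00000000392, 62500943 to 62574075) encodes fibroblast activation protein, a collagen-cleaving protease that fibroblasts raise in wounds and tumors. Its values were 7.66, 7.07, 6.73, 7.65 and 7.63 in wild-type mice 1 to 5 and 7.44, 7.54, 7.16, 7.41 and 7.45 in desmin knock-out mice 1 to 5. The knock-out mice lay within the wild-type range. The log2 difference was 0.054 (95% interval -0.33 to 0.44, limma, adjusted p = 0.871), and -0.10 without wild-type mouse 3. The difference between both genes in the same mouse, Fap minus Dpp4, was 1.06 ± 0.41 (SD, n = 5) in controls, against 1.56 ± 0.26 (SD, n = 5) without desmin. The genotypes differed by 0.49 in this measure, which did not pass a two-sided exact permutation test (p = 0.0794, adjusted p = 0.159 over 2 such measures), where 5 mice against 5 allow no p below 0.00794. Without wild-type mouse 4 it was 0.62 (exact permutation p = 0.0317, unadjusted) and without knock-out mouse 4 it was 0.58 (exact permutation p = 0.0476, unadjusted). The omission of any other mouse gave an unadjusted exact permutation p of 0.0794 to 0.151, and quantile normalization gave 0.0794. Of the more distant homologues, Dpp9, a cytosolic protease, was lower, with a log2 difference of -0.52 (limma, adjusted p = 0.00128). Dpp6, Dpp7, Dpp8, Dpp10 and Prep, the other homologues tested, did not pass (limma, adjusted p from 0.181 to 0.851).

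Mfap5 (ENSMUSG00000030116, chromosome 6, 122505845 to 122529290, forward strand) encodes a small glycoprotein of the microfibrils on which elastic fibers form, and is abundant in adventitial fibroblasts. Its values were 9.15, 9.03, 8.90, 8.95 and 9.27 in wild-type mice 1 to 5 and 9.30, 9.55, 9.13, 9.64 and 9.57 in desmin knock-out mice 1 to 5. Of the knock-out mice, 4 lay above all wild-type mice, and mouse 3 lay among them. This gave a mean of 9.06 ± 0.15 (SD, n = 5) for controls and of 9.44 ± 0.21 (SD, n = 5) for knock-out mice, and the log2 difference was 0.38 (standard error 0.12, 95% interval 0.13 to 0.63, limma, adjusted p = 0.0461). This call lay close to the threshold and was lost in 12 of 17 alternative fits, over which the difference stayed between 0.33 and 0.46 and the adjusted p ranged from 0.00212 to 0.126. Wild-type mouse 3 was among the mice without which it was lost (0.34, limma, adjusted p = 0.0521).

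Pi16 (ENSMUSG00000024011, chromosome 17, 29317680 to 29330593, forward strand) encodes a peptidase inhibitor that marks adventitial fibroblasts. It was at 8.89 to 9.37 in wild-type and 8.72 to 9.23 in desmin knock-out mice, with a log2 difference of -0.030 (95% interval -0.30 to 0.24, limma, adjusted p = 0.899). Smoc2 (ENSMUSG00000023886, chromosome 17, 14279506 to 14404790, forward strand) encodes a secreted calcium-binding protein of the matrix. It was at 10.61 to 11.64 in wild-type and 10.77 to 11.33 in desmin knock-out mice, with a log2 difference of -0.0079 (95% interval -0.36 to 0.34, limma, adjusted p = 0.982). For both genes the groups overlapped. Pi16 minus Smoc2 in the same mouse, a contrast of an adventitial marker with a marker of other FAPs, was -2.05 ± 0.22 (SD, n = 5) in controls, against -2.08 ± 0.10 (SD, n = 5) without desmin. The genotypes differed by -0.022 in this measure (two-sided exact permutation test, p = 0.849, adjusted p = 0.849 over 2 such measures).

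Gsn (ENSMUSG00000026879, chromosome 2, 35256380 to 35307892, forward strand) encodes gelsolin, which severs actin filaments and is made by many cell types besides FAPs. It was the most abundant marker, above 98.4% of all tested genes in its mean rlog value. It ranged from 13.20 in wild-type mouse 3 to 14.34 in wild-type mouse 5, and the 5 knock-out mice lay between 13.93 and 14.29. The log2 difference was 0.17 (95% interval -0.24 to 0.57, limma, adjusted p = 0.602), and -0.023 without wild-type mouse 3.

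Tcf7l2 (ENSMUSG00000024985, chromosome 19, 55741820 to 55933654, forward strand) encodes a transcription factor of canonical Wnt signaling that marks connective tissue fibroblasts of muscle. It was at 7.11, 6.87, 6.56, 7.15 and 7.21 in wild-type mice 1 to 5 and at 6.92, 7.28, 7.32, 6.98 and 7.35 in desmin knock-out mice 1 to 5. Of the knock-out mice, 3 lay above all wild-type mice, and the other 2 lay among them. The log2 difference was 0.19 (95% interval -0.12 to 0.50, limma, adjusted p = 0.429), and 0.083 without wild-type mouse 3. Of 7 relatives, partners and targets of this factor 5 were tested, and 2 of them were called lower, beside 5.99% of all tested genes. The median log2 difference of the 5 was -0.037, and 2 of them had a higher mean in desmin knock-out muscle. Tcf7l1, a related factor that mostly represses Wnt targets, was at 7.46 ± 0.12 (SD, n = 5) in controls, against 6.52 ± 0.20 (SD, n = 5) without desmin, a log2 difference of -0.94 (limma, adjusted p = 1.3e-04). Nkd1, a target and inhibitor of the pathway, had a log2 difference of -0.45 (limma, adjusted p = 0.0309). It was lost without knock-out mouse 2, 3 or 5, without an expression limit and with the replicate block (adjusted p up to 0.0861, limma), which left 1 gene called.

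**Figure D3:**
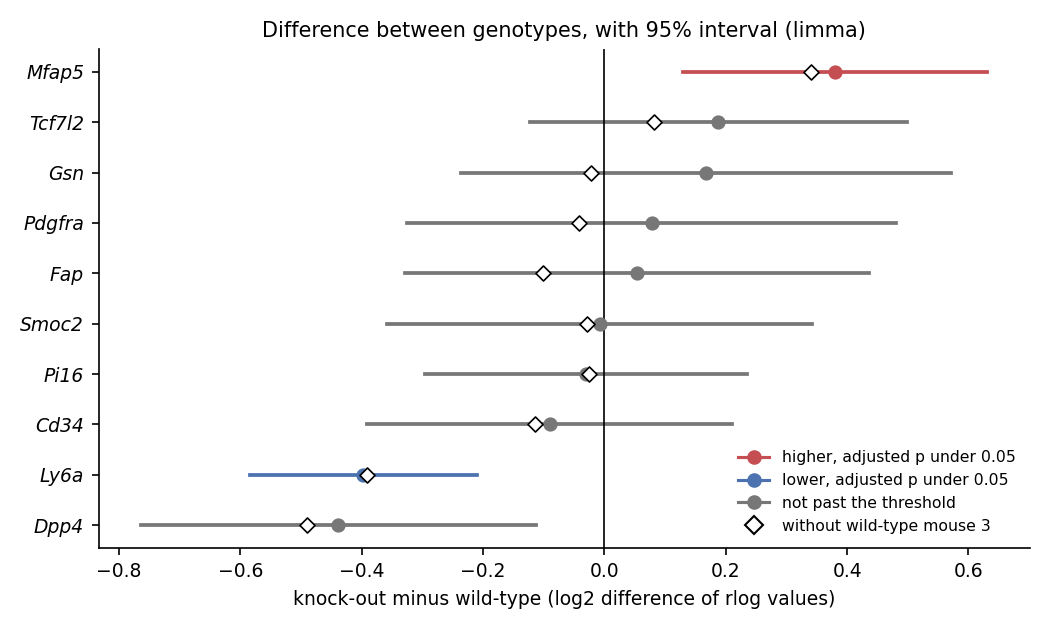
Log2 difference of rlog values, desmin knock-out minus wild-type (horizontal axis), for the 10 FAP marker genes, as points with 95% intervals from limma, red for higher and blue for lower at an adjusted p under 0.05 and gray otherwise. Open diamonds give the difference without wild-type mouse 3, for which Pdgfra, Gsn and Fap lie on the other side of 0.

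Differences between mice of the same genotype were shared by many of the markers. Knock-out mouse 3 had the lowest value of its genotype for 9 of the 10 genes, the exception being Tcf7l2, and lay 0.25 below its genotype mean on average over the 10 genes. Wild-type mouse 5 was the highest of its genotype for 7 genes, and lay 0.31 above on average. Wild-type mouse 3 was the lowest for 5 genes and lay 0.28 below on average. The spread of Pdgfra, Gsn and Fap was larger between wild-type mice (SD 0.45, 0.47 and 0.43) than between knock-out mice (SD 0.19, 0.15 and 0.14). Smoc2 and Tcf7l2 also had the larger SD in wild-type mice (0.37 and 0.27, against 0.21 and 0.20). Wild-type mouse 3 was the lowest wild-type mouse for Pdgfra, Gsn and Fap, and SDs without it were not computed. The order was the other way for Ly6a, with an SD of 0.05 in wild-type and 0.14 in desmin knock-out mice. It was also the other way for Cd34 (0.21 and 0.28), Dpp4 (0.19 and 0.29), Mfap5 (0.15 and 0.21) and, by little, Pi16 (0.197 and 0.202).

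After each value was set against its genotype mean, 42 of the 45 pairs of markers correlated positively over the 10 mice, with a median Pearson r of 0.54. Fap and Gsn had the highest r (0.95), followed by Mfap5 and Cd34 (0.88) and by Smoc2 and Cd34 (0.88). Without wild-type mouse 3 this order turned, with Mfap5 and Cd34 (0.89) above Smoc2 and Cd34 (0.88) and Fap and Gsn (0.87), and 41 of the 45 pairs were positive. The 3 negative values all belonged to Tcf7l2, with an r of -0.44 to Ly6a, -0.13 to Pi16 and -0.094 to Dpp4. Tcf7l2 also had an r of 0.70 to Fap and 0.67 to Gsn, which were 0.36 and 0.19 without wild-type mouse 3. These values describe 10 mice that share library and scaling, and no test was made of them.

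**Figure D4:**
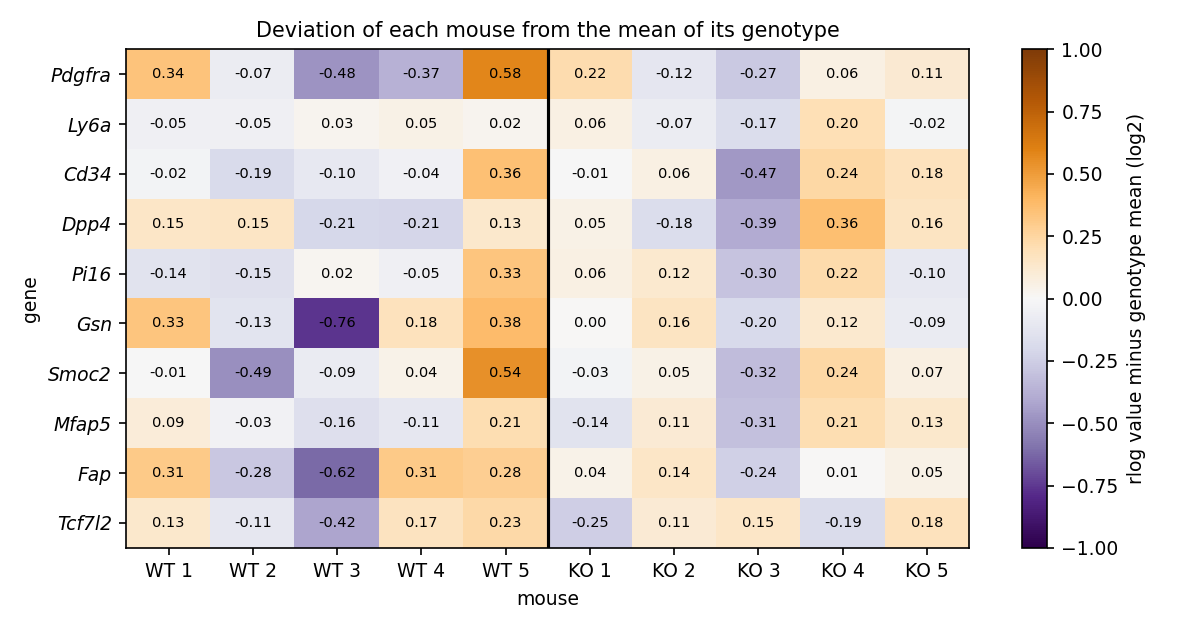
Deviation of each mouse (columns; WT, wild-type; KO, desmin knock-out) from the mean of its genotype, in log2 units of the rlog value, for each FAP marker gene (rows), with purple for values below and orange for values above the mean. The column of knock-out mouse 3 is negative for every gene except Tcf7l2, and the column of wild-type mouse 5 is positive for all 10 genes.

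Among all other tested genes, those closest to the mean profile of the 10 markers in these deviations were Fam114a1 (Pearson r = 0.96, Spearman rho = 0.85), Dpt (0.95 and 0.94), Nid2 (0.94 and 0.92), Fstl1 (0.94 and 0.98) and C1qtnf3 (0.94 and 0.87), each over 10 mice. Without knock-out mouse 3 and wild-type mouse 5, the mice farthest from the median, and with genotype means taken over the remaining mice, r lay between 0.76 for C1qtnf3 and 0.94 for Dpt. Dpt encodes dermatopontin, a matrix protein of fibroblasts, Nid2 a basement membrane nidogen and Fstl1 a secreted follistatin-like glycoprotein. C1qtnf3 encodes a secreted protein of the adiponectin family. Of the 5 genes C1qtnf3 was called between genotypes, higher by 1.26 on the log2 scale (limma, adjusted p = 0.00119), and the other 4 did not pass.

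Other genes of the adventitial type of fibroblast, 9 of 10 tested, had a median log2 difference of -0.044. Of these 2 were called, both lower and both without overlap, beside 5.99% called lower and 6.97% lower without overlap over all tested genes. In all, 4 of the 9 had a higher mean in desmin knock-out muscle, of which Cd55 turned to -0.069 without wild-type mouse 3. Cd248, which encodes the surface protein endosialin, was at 8.04 ± 0.21 (SD, n = 5) in controls, against 7.40 ± 0.34 (SD, n = 5) without desmin (log2 difference -0.64, limma, adjusted p = 0.0178). Tnxb, the matrix glycoprotein tenascin-X, was at 10.35 ± 0.24 (SD, n = 5) and 9.78 ± 0.18 (SD, n = 5) (log2 difference -0.56, limma, adjusted p = 0.0088). Of 8 genes of the type marked by Col15a1 and Smoc2, Lum, which encodes the collagen-binding proteoglycan lumican, was called higher (log2 difference 0.99, limma, adjusted p = 0.0091). The other 7 had log2 differences between -0.14 and 0.28, and between -0.20 and 0.22 without wild-type mouse 3.

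Transcription factors of connective tissue progenitors, all 9 tested, had a median log2 difference of 0.0017. Hic1, a repressor that marks quiescent mesenchymal progenitors of muscle, was the called gene of this list and was lower. It was at 6.71 ± 0.26 (SD, n = 5) in controls, against 6.07 ± 0.15 (SD, n = 5) without desmin, without overlap (log2 difference -0.64, limma, adjusted p = 0.00675). Prrx1, a homeobox factor of limb mesenchyme, had a log2 difference of 0.33 (limma, adjusted p = 0.171).

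Genes that fibroblasts use when they make matrix were set beside the 10 markers. Of 10 genes shared by fibroblasts, 4 were higher and none was lower, beside 7.7% of all tested genes called higher. Their median log2 difference was 0.33. The count was 3 without wild-type mouse 3 (median 0.23), 2 without knock-out mouse 5 or wild-type mouse 2, and 1 without knock-out mouse 1, 2 or 4 or wild-type mouse 4. Col1a2, a chain of type I collagen, had the smallest adjusted p (log2 difference 0.64, limma, adjusted p = 0.00795) and was called in all 17 alternatives, whereas Col1a1, the other chain, was lost in 10 and Mmp2, a matrix protease, in 6. Of 10 tested genes of activated fibroblasts, 8 were higher and none was lower, with a median of 0.95, and without wild-type mouse 3 again 8 were higher. Postn, the matricellular protein periostin, was at 8.58 ± 0.49 (SD, n = 5) in controls, against 10.53 ± 0.26 (SD, n = 5) without desmin. Knock-out values of Postn lay between 10.11 and 10.80 and wild-type values between 8.15 and 9.37 (from 8.19 without mouse 3). Lists of this kind, and some of these genes, were known to be higher in these mice before the lists were written, so the counts are no independent evidence of their direction.

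**Figure D5:**
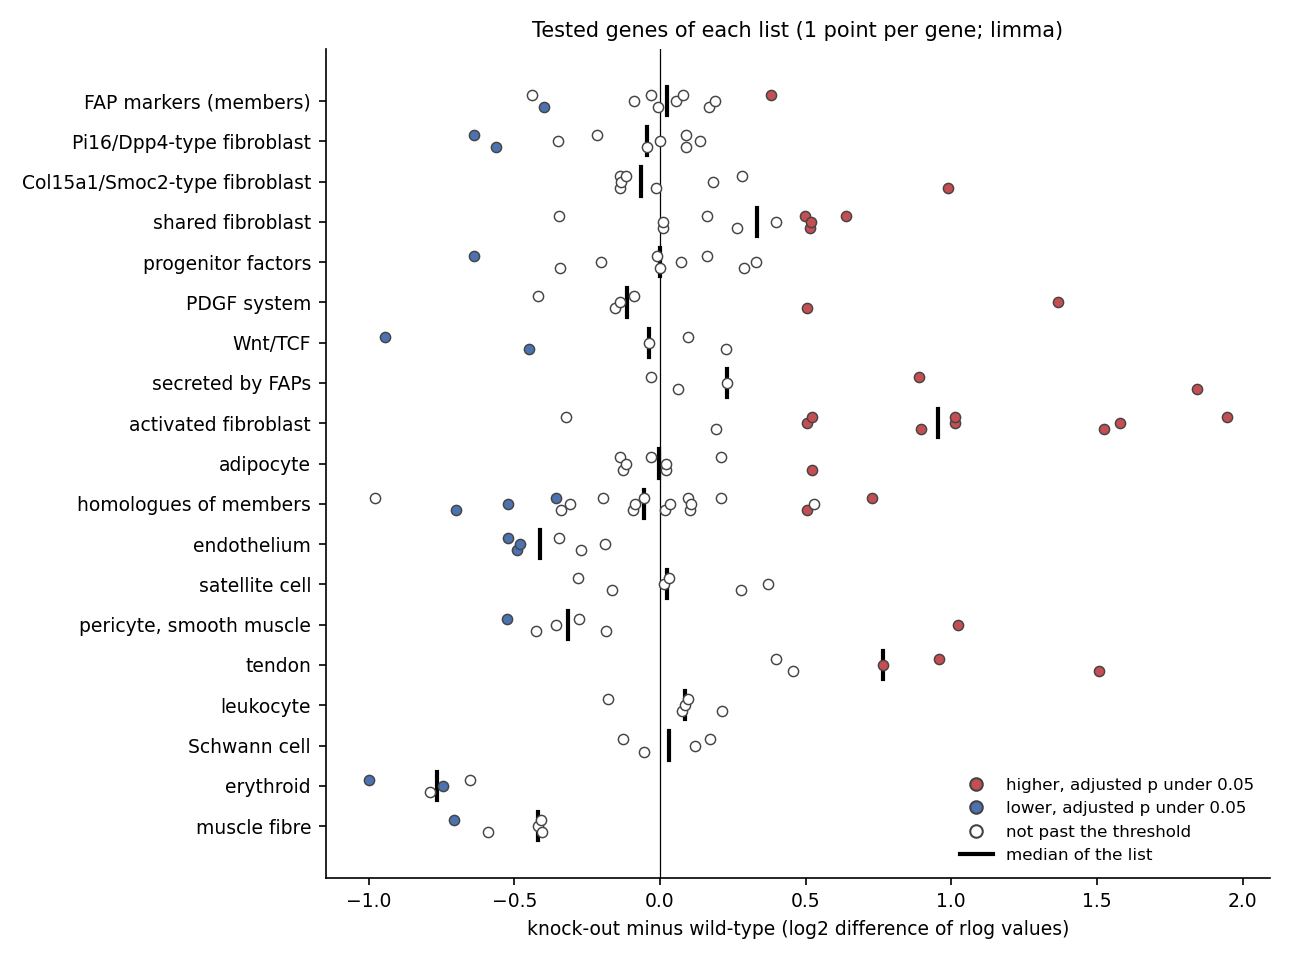
Log2 difference of rlog values, desmin knock-out minus wild-type (horizontal axis), of every tested gene of the FAP markers and of 18 other lists (rows), with 1 point per gene, red for higher and blue for lower at an adjusted p under 0.05 (limma) and white otherwise, and a black bar at the median of each list. The FAP markers lie between -0.44 and 0.38, and the activated fibroblast genes reach 1.95.

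Among secreted factors attributed to FAPs, 2 of 5 tested genes were higher, beside 7.7% of all tested genes. Fst, the follistatin gene whose product binds myostatin and activins, was at 6.74 ± 0.32 (SD, n = 5) in controls, against 8.58 ± 0.19 (SD, n = 5) without desmin, a log2 difference of 1.84 (limma, adjusted p = 3.8e-06). Ccn4, which encodes the matricellular protein WISP1, was higher by 0.89 on the log2 scale (limma, adjusted p = 0.00186). Muscle fibers can also make follistatin, and the source of the transcripts was not tested.

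Adipocyte genes, the other fate of FAPs, had a median log2 difference of -0.0043 over 8 tested genes, and 0.026 without wild-type mouse 3. Cebpa, a transcription factor of adipocyte differentiation that other cells also express, was higher (log2 difference 0.52, limma, adjusted p = 0.0102). Genes that define mature adipocytes did not pass, and Plin1, which encodes the perilipin of the fat droplet, had a log2 difference of -0.14 (limma, adjusted p = 0.66).

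Markers of other cells that can contribute to the 10 genes differed in direction. Tendon genes were higher for 3 of 5, among them Tnmd, the tenomodulin gene (log2 difference 1.51, limma, adjusted p = 8.2e-04), and their summed level was 11.85 to 12.89 in wild-type (to 12.62 without mouse 3) and 12.91 to 13.43 in desmin knock-out mice. Of 6 genes of pericytes and smooth muscle, Cspg4, the NG2 proteoglycan gene, was higher by 1.02 on the log2 scale and Kcnj8, a potassium channel gene of pericytes, was lower with -0.53 (adjusted p = 9.7e-05 and 0.0144, limma). Only Cspg4 of these 6 had a higher mean in desmin knock-out muscle, and their median log2 difference was -0.32. Of 6 satellite cell genes, 5 leukocyte genes and 4 Schwann cell genes none passed in limma and 0 had an unadjusted p under 0.05, and their medians were 0.023, 0.085 and 0.032 (-0.026, -0.0028 and 0.062 without wild-type mouse 3). Erythroid genes were lower for 2 of 4, for 3 without wild-type mouse 3 and for 1 without knock-out mouse 1, 3 or 4. Their summed level was 11.84 to 13.17 in wild-type (to 12.09 without mouse 3) and 11.25 to 11.80 in desmin knock-out mice. Of 5 muscle fiber genes Myh4, a fast myosin heavy chain, was called lower (log2 difference -0.71, limma, adjusted p = 0.036), and this was lost in 11 of 17 alternatives (adjusted p up to 0.161), among them the omission of any mouse except wild-type mouse 3 or 5. The summed level of these genes was 22.09 to 23.09 in wild-type (to 22.48 without mouse 3) and 21.84 to 22.00 in desmin knock-out mice. No gene of these lists was at 0 in all mice, and their part in the values of the 10 markers was not tested.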

How the data were processed

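The RNA-seq table of 10 gastrocnemius muscles (5 per genotype) was taken as deposited. Per the labels, a stranded mRNA kit was used, and the submitters' processing notes name cutadapt 2.5, STAR 2.5.4a, Subread 1.6.1 with featureCounts, DESeq2 and the build GRCm38. The table deposited by the authors holds rlog values (log2 scale). Counts were not used here, so depth and counting error are unknown, and whether reads were counted by strand is not given in the sources used here. Symbols, positions and lengths came from GENCODE M21 (GRCm38), with a match for 54165 of 54232 genes.

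limma 3.58.1 (R 4.3.3; lmFit and eBayes with trend, genotype as sole term) was run on genes whose average rlog value reached log2(10). The fit was tested on simulated data. Alternatives were a limit of log2(50) or none, quantile normalization, median centring, sample weights, a single prior variance, a replicate block, and the omission of each mouse. The labels name separate mice while the methods speak of pooled RNA, so p-values measure the spread between these 10 libraries, which may be partly technical. The named genes were taken from Des, the 10 markers, the genes of smallest adjusted p (at most 3) from 18 other lists, and the 5 genes closest in profile. Not all of these were described above. Among those left out were the activated fibroblast genes Timp1 and Col12a1 (log2 difference 1.58 and 1.53, limma, adjusted p = 2.4e-05 and 3.1e-04). Podxl, a homologue of a marker, was also left out (-0.70, limma, adjusted p = 0.00255). The markers and lists were chosen with earlier results of these data known. Replicate numbers were not used as pairs in the main fit. Deviations of same-numbered mice correlated weakly (-0.22 to 0.067), which cannot show whether the mice were paired.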

Additional observations from a re-analysis of the deposited data

Results flagged for a closer look

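In 64 groups of 5 mice (each genotype, for the 10 markers, Des, the mean of each list and the within-mouse differences), 5 contained 1 mouse distant from its group, and about 3.2 are due by chance. None of the 10 markers was among them. Wild-type mouse 3 exceeded its group for Des (17.74, the others 16.10 to 16.55) and for the mean of the erythroid genes (10.50, the others 9.04 to 9.31), and lay below it for the mean of the satellite cell genes (6.98, the others 7.30 to 7.42). Knock-out mouse 3 was below the other knock-out mice for the mean of the genes shared by fibroblasts (10.37, the others 10.80 to 10.93), the same mouse that was lowest for 9 of the 10 markers. Wild-type mouse 1 was below the other wild-type mice for the mean of the endothelial genes (9.42, the others 9.70 to 9.80).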

How the results depend on the processing

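Ly6a stayed lower and past the threshold in all 17 alternatives, and Des likewise. The number of called markers, 2, was 1 without an expression limit, with a single prior variance and with the replicate block, 3 with quantile normalization and with sample weights, and between 1 and 2 when a mouse was left out. The marker lost was Mfap5, which fell out without knock-out mouse 1, 2, 4 or 5 or wild-type mouse 1, 2, 3 or 4 (adjusted p 0.0521 to 0.126, limma). Dpp4 was called under median centring, quantile normalization and sample weights and without knock-out mouse 4 or wild-type mouse 3 (adjusted p from 0.0274 to 0.168 over its 17 alternatives, limma). Of the other lists, counts of erythroid genes ranged from 0 to 4, of shared fibroblast genes from 1 to 4 and of PDGF genes from 1 to 3 over the alternatives. Sample weights raised the number of all called genes from 1956 to 4220, the replicate block gave 1579, and leaving out a mouse gave 1400 to 2496.

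Some named genes changed sign, most of them with differences near 0. With sample weights the log2 difference was 0.066 for Cd34, -0.024 for Pdgfra, 0.085 for Pi16, 0.21 for Smoc2 and 0.092 for Nid2. With quantile normalization it was -0.015 for Fap, 0.025 for Smoc2 and 0.039 for the fiber gene Tnnt3, whose reported difference was -0.40 (adjusted p = 0.208, limma). With a mouse left out, it ranged from -0.15 to 0.026 for Cd34, -0.10 to 0.13 for Fap, -0.023 to 0.26 for Gsn, -0.042 to 0.22 for Pdgfra, -0.085 to 0.052 for Pi16, -0.13 to 0.13 for Smoc2, -0.28 to 0.0059 for Plin1 and -0.12 to 0.13 for Nid2. Fap minus Dpp4 differed by 0.38 to 0.62 with a mouse left out and Pi16 minus Smoc2 by -0.076 to 0.062. The replicate block gave 0.49 and -0.022 for these (exact sign-flip permutation p = 0.25 and 0.75). The cause of these shifts was not tested. The shrinkage of rlog and the unknown depth limit what can be said of Dpp4, the marker with the lowest values.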
